A study of Homo sapiens with 6 samples.

Results

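The transcripts of 10 glycolytic enzymes were followed through all deposited tables of a study of the RNA targets of TRMT10A, a methyltransferase of tRNA. The enzymes were GPI, ALDOA, TPI1, GAPDH, PGK1, PGAM1, ENO1, PKM, LDHA and LDHB, and they were taken by gene symbol. They are 10 of the 20056 protein-coding genes used as background here, and the m6A peaks alone were listed on 9279 genes. Their CLIP clusters numbered 14 of 1675 in replicate 1 and 33 of 2183 in replicate 2, and their m6A peaks numbered 12 of 26475. All RNA came from HEK293T, a widely used cell line of human embryonic kidney origin. One arm received siRNA against TRMT10A (TRMT10A KD) and the other a control siRNA (Ctrl KD), delivered with Lipofectamine RNAiMax, and each arm gave 1 library of RNA immunoprecipitated with an m6A antibody and 1 input library. RNA crosslinked to and immunoprecipitated with TRMT10A (CLIP) was sequenced in 2 replicates, whose siRNA label reads TRMT10A without the letters KD. The sources used here do not give what that label means, whether the cells carried an added TRMT10A construct, or which CLIP protocol was used. Separate cultures for the CLIP replicates are not stated in the labels, so their spread may be technical.

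Glycolysis breaks glucose down to pyruvate in the cytosol and yields ATP and NADH. Lactate dehydrogenase then turns pyruvate into lactate and restores the NAD+ that GAPDH consumes, which proliferating cell lines rely on. The enzymes of the lower pathway are among the most abundant proteins of such cells, and their mRNAs are long lived and heavily translated. N6-methyladenosine (m6A) is a methyl mark inside mRNAs, written mostly within short motifs such as GGACU and often found near stop codons.

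A CLIP cluster is a short stretch of RNA in which the authors counted conversion events, and every listed cluster had at least 2 of them. Clusters of both replicates shared at least 1 base at 7 positions on these mRNAs. The 5 positions with the longest shared stretches are shown because they are where clusters of both libraries meet on a glycolytic mRNA. Each line gives 30 bases of mRNA from 5′ to 3′ on the coding strand, from GENCODE release 29 transcripts (GRCh38, the same build as hg38), with T for U, and capitals mark the bases that clusters of both replicates cover. The windows lie at chr12:6537929-6537958 and chr12:6537681-6537710 (plus strand, GAPDH exon 8), at chr15:72200480-72200509 and chr15:72207135-72207164 (minus strand, PKM exons 10 and 7), and at chr16:30069507-30069536 (plus strand, ALDOA exon 7). All 5 are coding sequence.
GAPDH codons 291 to 300: caCTCCTCCACCTTTGACGCTGGGGCTGgc
GAPDH codons 210 to 216: ctgccTCTACTGGCGCTGCCAAGGCtgtgg
PKM codons 486 to 493: acgtGGACCTCCGGGTGAACTTTGCCatga
PKM codons 320 to 324: gcaaccgagCTGGGAAGCCTGtcatctgtg
ALDOA codons 211 to 222: TGCTGTCTACAAGGCTCTGAGTGACCACCA
None of these windows held the letters GGACT. The ALDOA stretch runs on for 3 more shared bases beyond the 30 shown, and the same 30 bases stand in the overlapping gene AC093512.2.

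TRMT10A clusters were listed on 8 of the 10 mRNAs in replicate 2 and on 4 in replicate 1, and those 4 (ALDOA, GAPDH, ENO1 and PKM) were listed in both. Of 20056 protein-coding genes, 3.38% were listed in replicate 2, 2.19% in replicate 1 and 1.44% in both. Either replicate listed 8 of the 10 enzymes, against 4.12% of protein-coding genes. All listed clusters of these enzymes were assigned to exons, though the PKM cluster of replicate 2 in exon 7 ran 2 bases past that exon. Exon clusters in both replicates were found for 4 of the 10, against 0.868% of protein-coding genes. No member was listed in replicate 1 alone. The libraries held 342690 and 496030 conversion events, so that 2 events of replicate 2 scale to 1.38 events at the depth of replicate 1, which is under the listing minimum of 2, and 3 events scale to 2.07. This scaling uses all events of the libraries. Events in mRNA exons, with histone mRNAs set aside, numbered 1619 and 2837, and scaling by them would give lower values. The part of the depth difference in the 4 mRNAs listed in replicate 2 alone was not tested. mRNA levels and a control immunoprecipitation were not analysed here, so the counts describe the CLIP libraries and not binding per mRNA molecule.

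The 10 mRNAs held 78 events in replicate 1 and 108 in replicate 2. This was 4.82% of the 1619 events in mRNA exons of replicate 1 (95% Wilson interval 3.88 to 5.97%) and 3.81% of the 2837 in replicate 2 (3.16 to 4.58%), with histone mRNAs set aside. Reads without molecular identifiers may be copies of one another, so such intervals hold for counting error alone. The mean share was 4.31% ± 0.715 (SD, n = 2). GAPDH alone supplied 52.6% and 38% of the members' events in replicates 1 and 2, and without it the mean share was 2.32%. Scaled to library size, the members together held 228 and 218 of every 1000000 events.

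**Figure D1:**
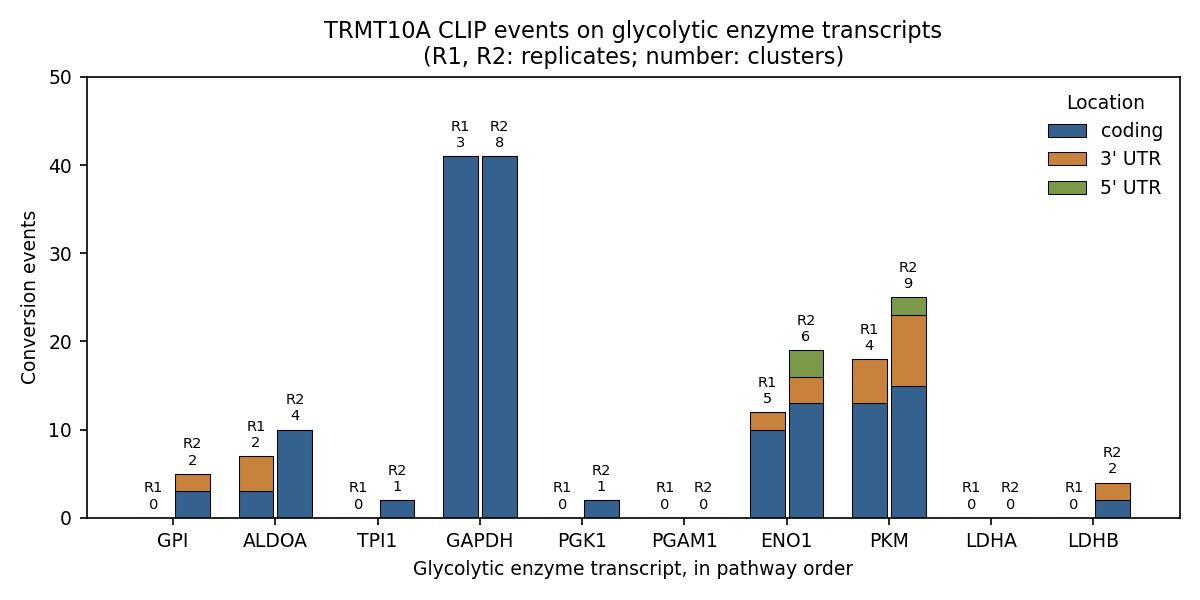
Conversion events (y axis) on each glycolytic mRNA in pathway order (x axis), 1 bar for each CLIP replicate, coloured by where the clusters lay, with the number of clusters above each bar. GAPDH stands at 41 events in both replicates and all of them are coding, PKM, ENO1 and ALDOA follow in both, and PGAM1 and LDHA have none.

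GPI and TPI1 carried few events. GPI, which converts glucose 6-phosphate to fructose 6-phosphate, was not listed in replicate 1 and had 2 clusters in replicate 2. The larger, with 3 events, lay in coding exon 2 (chr19:34366414-34366428, plus strand), and the other, with 2 events, in the 3′ UTR (chr19:34400048-34400069), where the gene AC092073.1 overlaps on the same strand. TPI1, which interconverts the triose phosphates, had 1 cluster of 2 events in replicate 2, in its first coding exon (chr12:6867645-6867672, plus strand), and was not listed in replicate 1. Both mRNAs thus rested on clusters at or 1 event above the listing minimum.

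ALDOA, the aldolase that splits fructose 1,6-bisphosphate into triose phosphates, was the only one of these enzymes before GAPDH in the pathway that both replicates listed. Replicate 1 gave it 7 events in 2 clusters and replicate 2 gave it 10 events in 4 clusters. Per 1000000 library events these are 20.4 and 20.2, a mean of 20.3 ± 0.188 (SD, n = 2). Scaled to all library events, the levels of the replicates were thus nearly equal, although the positions mostly were not. Scaled to events in mRNA exons, replicate 2 would lie lower relative to replicate 1. With 7 and 10 events, so small an SD does not measure the counting error. The exon 7 clusters, chr16:30069502-30069539 in replicate 1 and chr16:30069507-30069552 in replicate 2, had 3 events each and shared 33 bases. Replicate 1 also had 4 events in the 3′ UTR (chr16:30070230-30070253), 45 bases downstream of a replicate 2 cluster of 3 events at the end of the coding sequence (chr16:30070154-30070184). The remaining replicate 2 clusters, with 2 events each, lay in coding exons 2 and 3. All 6 ALDOA clusters also match AC093512.2, a gene annotated over ALDOA on the same strand, so the counts cannot tell the transcripts of these genes apart.

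GAPDH, which oxidises glyceraldehyde 3-phosphate and makes NADH, carried the most events of the 10. It had 41 events in each replicate, in 3 clusters of replicate 1 and 8 clusters of replicate 2. Since replicate 2 is the larger library, this was 120 and 82.7 per 1000000 library events, a mean of 101 ± 26.2 (SD, n = 2). A single position held most of it. The largest cluster had 35 events in replicate 1 (chr12:6537931-6537969) and 22 events in replicate 2 (chr12:6537931-6537956), began at the same base in both, and covered codons 291 to 300 of 335 in the shared stretch shown above. Per 1000000 library events it had 102 in replicate 1 (exact 95% Poisson interval 71.1 to 142) and 44.4 in replicate 2 (27.8 to 67.1), counting intervals that do not overlap. This cluster accounted for 85.4% of GAPDH events in replicate 1 and 53.7% in replicate 2. Its sequence was found in no transcript of another gene. The gene AC006064.4 is annotated over it on the opposite strand, and the clusters are assigned to the plus strand.

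The remaining GAPDH clusters were small and lay close to the large one. Exon 8, with 413 bases 22.0% of the mRNA, held all 3 clusters of replicate 1 within 284 bases. In replicate 2 it held 6 of 8 clusters within 275 bases and 36 of 41 events, or 87.8%. The clusters outside the exon were 1 of 2 events in exon 3 (chr12:6536516-6536540) and 1 of 3 events in exon 4 (chr12:6536723-6536761). Besides the largest, a cluster at codons 210 to 216 was shared, with 3 events in replicate 1 and 4 in replicate 2. At codons 244 and 245 a cluster of 3 events in each replicate shared 3 bases. Neither the largest cluster nor that at codon 210 matched another gene, whereas 1 of 3 clusters in replicate 1 and 5 of 8 in replicate 2 matched transcripts of other genes exactly, processed GAPDH pseudogenes among them. The matching clusters held 3 and 12 of the 41 events, so the origin of those events is uncertain.

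**Figure D2:**
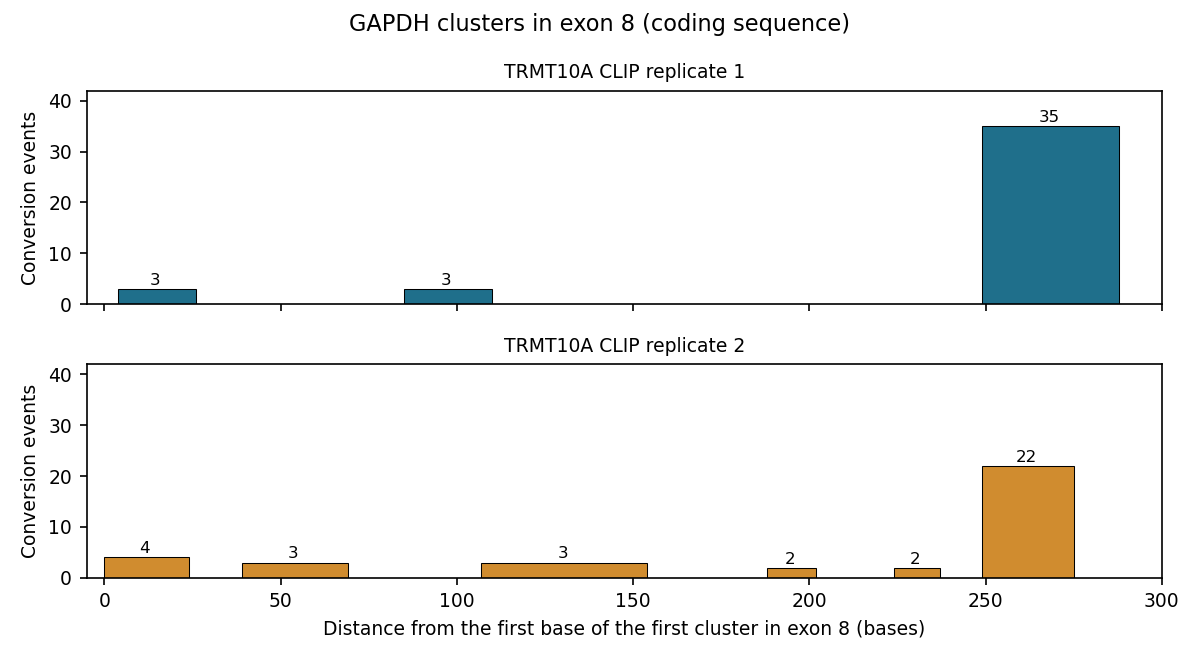
Conversion events (y axis, from 0) of the GAPDH clusters in exon 8 against the distance in bases from the first base of the first cluster in that exon, with replicate 1 above and replicate 2 below and each bar as wide as its cluster. The bars of 35 and 22 events start at the same base, and all other bars stand at 2 to 4 events.

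The pair of enzymes after GAPDH was nearly bare. PGK1, which makes ATP from 1,3-bisphosphoglycerate, had a single cluster of 2 events in replicate 2, in coding exon 9 (chrX:78124934-78124954, plus strand), and none listed in replicate 1. Its sequence also stands in the pseudogene PGK1P2. PGAM1, the mutase that moves the phosphate to form 2-phosphoglycerate, was not listed in either replicate. Because the tables keep only clusters of at least 2 events, events below that minimum cannot be seen.

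ENO1, the enolase that forms phosphoenolpyruvate, had many small clusters. There were 5 with 12 events in replicate 1 and 6 with 19 events in replicate 2, or 35 and 38.3 per 1000000 library events (mean 36.7 ± 2.32, SD, n = 2). No cluster had more than 3 events in replicate 1 or more than 5 in replicate 2. Scaled to all library events, the counts on ENO1 thus differed little between the libraries, within a wide counting error. Yet no ENO1 cluster of one replicate shared a base with a cluster of the other. The nearest were 6 bases apart in the 3′ UTR, with 2 events in replicate 1 (chr1:8861323-8861346, minus strand) and 3 in replicate 2 (chr1:8861302-8861316). The largest, with 5 events, lay in coding exon 10 (chr1:8863274-8863308) of replicate 2, and replicate 1 had its coding clusters in exons 2, 8 and 9. Replicate 2 alone had a cluster in the 5′ UTR (chr1:8878638-8878673, 3 events). Of the replicate 1 clusters, 3 with 8 of the 12 events match the pseudogene ENO1P1 and the protein-coding gene EDARADD exactly. Among these, the exon 2 cluster of 12 bases also matches transcripts of further genes, such as AKAP5. None of the replicate 2 clusters matches another gene.

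PKM, the pyruvate kinase that makes ATP and pyruvate in the last step of glycolysis, ranked next to GAPDH. It had 18 events in 4 clusters of replicate 1 and 25 events in 9 clusters of replicate 2, or 52.5 and 50.4 per 1000000 library events (mean 51.5 ± 1.5, SD, n = 2). Of the 4 clusters of replicate 1, 3 shared at least 1 base with a cluster of replicate 2. The exon 10 position shown above (codons 486 to 493 of 531) had 6 events in replicate 1 and 4 in replicate 2. The exon 7 position (codons 320 to 324) had 4 and 5 events. The clusters shared 22 bases in exon 10 and 12 bases in exon 7. A 3′ UTR position, chr15:72199218-72199222 on the minus strand, had 5 and 3 events, with 5 bases in common. Only in exon 10 did the overlap reach 50% of the shorter cluster. All these events are counted over whole clusters, not over the shared bases. No shared PKM position reached the size of the large GAPDH cluster, and in contrast to it the events were spread along the mRNA.

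The PKM clusters seen in a single replicate held 3 of 18 events in replicate 1 (16.7%) and 13 of 25 in replicate 2 (52%). Replicate 1 had 3 events in exon 5 (chr15:72209752-72209772), and replicate 2 had clusters of 2 events in exons 3, 5 and 11, 1 of 2 events in the 5′ UTR, and 2 more in the 3′ UTR with 3 and 2 events. PKM is spliced into the M1 and M2 forms through a choice between alternative exons, of which M2 prevails in most proliferating cells. Neither alternative exon 9, chr15:72203022-72203188 for M1 and chr15:72202454-72202620 for M2, each of 167 bases, held a cluster in either replicate, so the clusters do not tell which form was bound. Of the PKM clusters, 1 of 4 in replicate 1 (exon 5) and 2 of 9 in replicate 2 (exons 3 and 5) also match the pseudogene PKMP1 exactly.

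The lactate dehydrogenases, which interconvert pyruvate and lactate as tetramers of A and B subunits, were at the low end. LDHB had 2 clusters of 2 events each in replicate 2, in coding exon 5 (chr12:21642034-21642054, minus strand) and in the 3′ UTR (chr12:21635522-21635541), and was not listed in replicate 1. AC010197.2 overlaps both on the same strand. LDHA, the subunit that favours lactate formation, was not listed in either replicate.

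**Figure D3:**
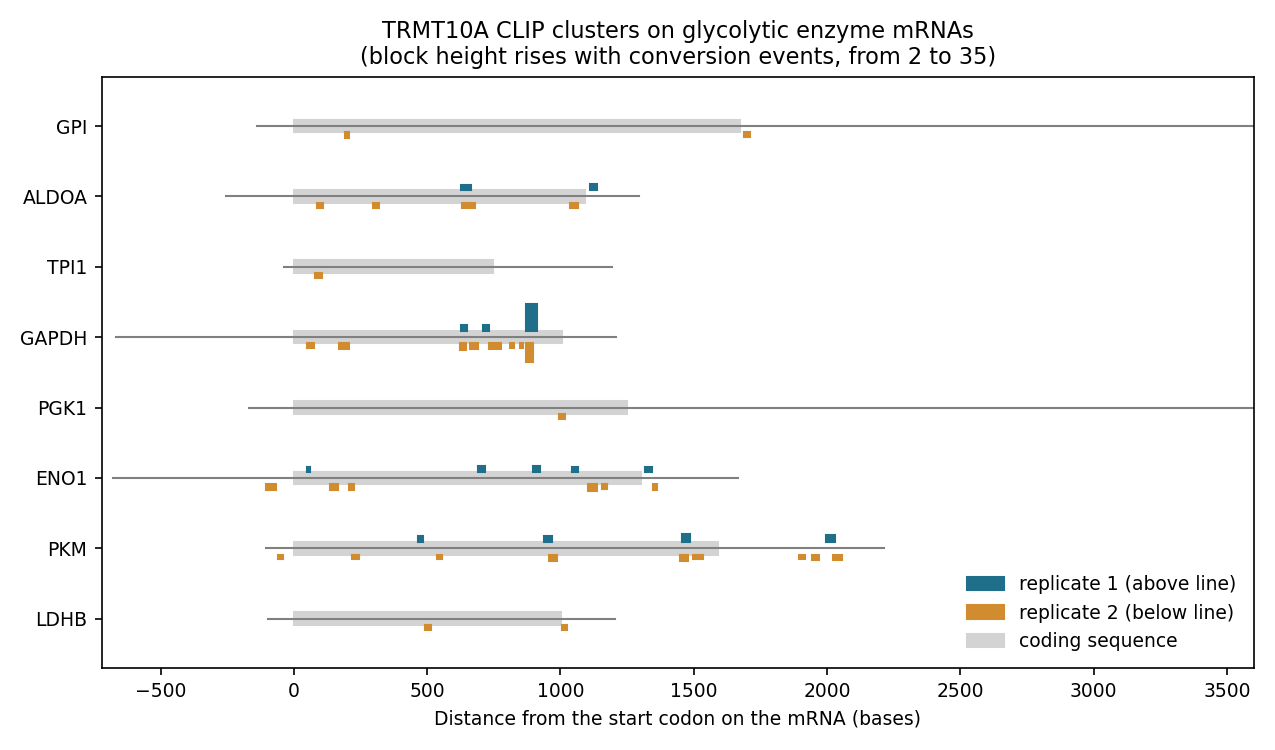
Positions of the CLIP clusters on the 8 listed mRNAs, in bases from the start codon (x axis), with replicate 1 above and replicate 2 below each line and blocks that grow taller with events from 2 to 35. Grey boxes are coding sequence and thin lines the UTRs, and the 3′ UTRs of GPI and PGK1 run past the right edge. The tall GAPDH blocks coincide near the end of the coding sequence, whereas ENO1 blocks alternate along the mRNA without overlap.

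Levels can be compared between genes only per length, here as exon events per kb of the longest annotated mRNA. GAPDH had 21.9 events per kb in each replicate and ranked 13 of 292 genes in replicate 1 and 20 of 499 in replicate 2. PKM followed with 6.62 and 9.20 per kb (ranks 47 and 43), ENO1 with 5.12 and 8.10 (ranks 62 and 50), and ALDOA with 2.86 and 4.08 (ranks 88 and 94). The order GAPDH, PKM, ENO1, ALDOA was the same in both replicates. Scaled to library depth as well, per kb and per 1000000 library events, GAPDH had 63.8 in replicate 1 (exact 95% Poisson interval 45.8 to 86.6) and 44.1 in replicate 2 (31.6 to 59.8), and PKM had 19.3 (11.5 to 30.6) and 18.5 (12 to 27.4). The intervals of GAPDH and PKM do not overlap in either replicate. On that scale ENO1 had 14.9 (7.72 to 26.1) and 16.3 (9.83 to 25.5), and ALDOA 8.34 (3.35 to 17.2) and 8.24 (3.95 to 15.1). The neighbours PKM and ENO1 overlap in their counting intervals, as do ENO1 and ALDOA, although each pair kept its order in both replicates. Unscaled for depth and below them them in replicate 2 were LDHB at 2.60, TPI1 at 1.26, GPI at 1.15 and PGK1 at 0.409 per kb. These values rest on 2 to 5 events each, and their counting intervals overlap. The median over all genes with exon clusters was 1.19 per kb in both replicates. In replicate 2 PGK1 lay below it. GPI and TPI1 lay so close to it that their side depends on the mRNA length used and on counting error.

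**Figure D4:**
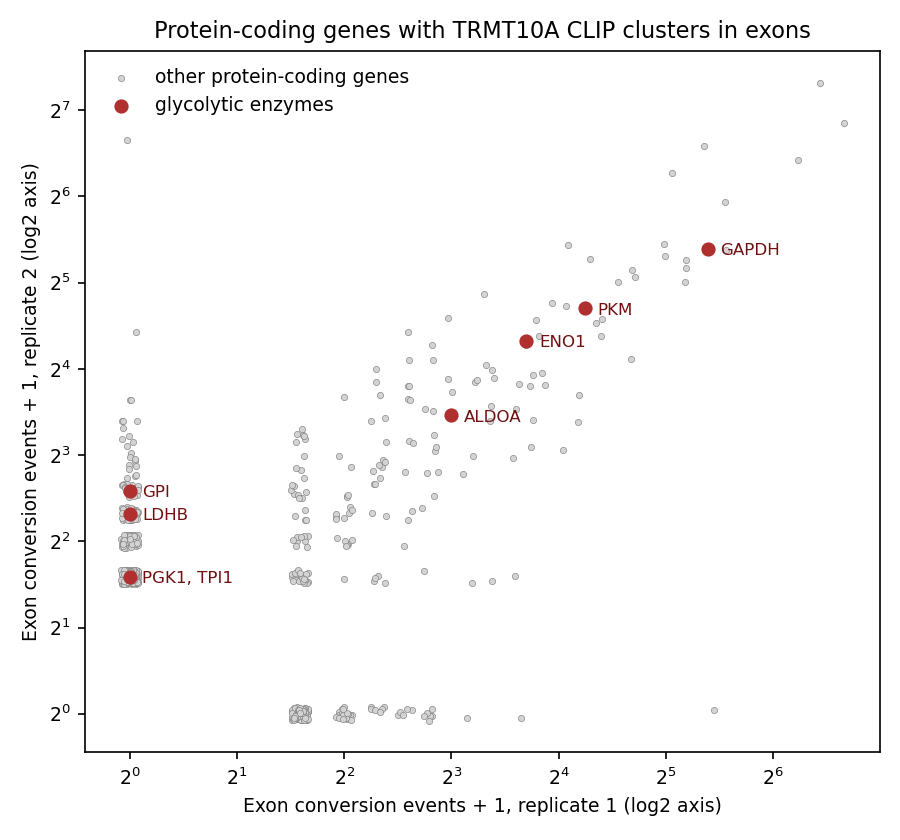
Exon conversion events plus 1 of every protein-coding gene with an exon cluster, replicate 1 (x) against replicate 2 (y), both axes log2, with a small seeded jitter on the grey points. The red points of GAPDH, PKM, ENO1 and ALDOA lie among genes seen in both replicates, and GPI, LDHB, PGK1 and TPI1 lie on the left edge at 0 events in replicate 1.

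GAPDH events were concentrated in 1 cluster, and those of ENO1 and PKM were spread out. Among genes with 3 or more exon clusters, GAPDH had 85.4% of its events in the largest in replicate 1, where the median of 48 genes was 38.5%, and 53.7% in replicate 2, where the median of 78 genes was 38.1%. In replicate 1 only 2 of the 48 genes, GAPDH included, reached that share, and in replicate 2 it was 13 of 78. ENO1 lay below the median in both replicates with 25% and 26.3%, and so did PKM with 33.3% and 20%. ALDOA had 3 or more clusters in replicate 2 alone and stood at 30% there.

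Recurrence of the members' clusters did not stand clear of that of all mRNA clusters. In replicate 1, 7 of 14 member clusters, or 50% (95% Wilson interval 26.8 to 73.2%), shared a base with a cluster of replicate 2, against 40.7% of all 432 mRNA exon clusters, the members included. In replicate 2 it was 7 of 33, or 21.2% (10.7 to 37.8%), against 23.4% of all 800. Both background shares lie inside the members' intervals. By events the recurrent clusters held 75.6% of the members' events in replicate 1 and 40.7% in replicate 2, against 55.1% and 38.9% of all mRNA exon events, and without GAPDH the members' shares were 48.6% and 22.4%. Of the member clusters with 5 or more events, all 3 of replicate 1 and 2 of 3 in replicate 2 were shared, the exception being the ENO1 cluster in exon 10. Clusters at the minimum of 2 events were 3 of the 14 members' in replicate 1 (21.4%), against 51.2% of all mRNA exon clusters. In replicate 2 they were 16 of 33 (48.5%), against 56.2%.

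Most member clusters lay in coding sequence. This was 11 of 14 in replicate 1 (78.6%, 95% Wilson interval 52.4 to 92.4%) and 25 of 33 in replicate 2 (75.8%, 59.0 to 87.2%), against 66.9% and 67.4% of all mRNA exon clusters, which lie inside those intervals. The 3′ UTRs held 3 and 6 member clusters (21.4% and 18.2%), and the 5′ UTRs none in replicate 1 and 2 in replicate 2, on ENO1 and PKM. GAPDH contributed coding clusters only, and without it the coding shares were 72.7% and 68.0%. The member clusters were short, with medians of 24.5 bases (12 to 39) and 25 bases (13 to 47). Their base composition was near that of all mRNA clusters that could be placed on a transcript. The median share of T was 23.8% in replicate 1 and 25.7% in replicate 2, against 25.3% and 24.4%, and the median GC share was 56.8% and 55.9%, against 58.3% and 57.9%. The letters GGACT, searched on the transcript strand alone, stood in 1 of 14 member clusters of replicate 1 and none of 33 in replicate 2, against 9.52% and 8.81% of all placed mRNA clusters. The ALDOA and LDHB mRNAs hold no GGACT, so their clusters could not contain it. No interval was computed, and so few clusters cannot show a depletion.

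The m6A table lists a peak on each line with 1 ratio of TRMT10A knockdown over control. Its ratio column was found to be sorted on its own, never rising from a line to the next, and only 5.62% of motif positions fell inside the peak of their own line. No ratio is therefore given for any gene, and no comparison of knockdown with control was made for these mRNAs. The gene columns list 12 peaks on 7 of the 10 enzymes, against 44.6% of protein-coding genes with a peak. GPI, ALDOA, PGK1, PGAM1 and LDHA had 2 peaks each and TPI1 and PKM 1 each, whereas GAPDH, ENO1 and LDHB were not listed. The 7 enzymes had a median of 2 peaks, equal to that of the 8953 protein-coding genes with a peak, and none had more than 2, where other genes reached 22. Peak lengths had a median of 197 bases (100 to 343) for the members and 175 bases (100 to 802) over all protein-coding genes.

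CLIP and m6A listings did not pick out the same enzymes. Of the 4 enzymes with clusters in both CLIP replicates, ALDOA and PKM had a peak and GAPDH and ENO1 did not, while 67.8% of all protein-coding genes listed in both replicates had one. Among the 4 listed in replicate 2 alone, GPI, TPI1 and PGK1 had a peak and LDHB did not. PGAM1 and LDHA, which had no listed cluster, each had 2 peaks. With 4, 4 and 2 genes in these classes, the shares of genes with a peak are not separated by counting error.

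On the GENCODE transcripts linked to the listed RefSeq entries, 11 of the 12 peaks could be placed, and the middle of all 11 lay in coding sequence, against 71.2% of 24402 placed peaks in the whole table. No member peak had its middle in a 3′ UTR, where 19.5% of all placed peaks had theirs, or in a 5′ UTR (9.32%). The LDHA peak at bases 1205 to 1380 crossed the end of the coding sequence at base 1365, the PGAM1 peak at 74 to 238 crossed its start at base 149, and the TPI1 peak at 518 to 727 crossed its start at base 528. The ALDOA peak at 1107 to 1375 also crossed the end of the coding sequence, at base 1345. The second ALDOA peak, at 1471 to 1616, runs past the 1550 bases of the linked transcript. Starts of RefSeq and GENCODE transcripts can differ, so positions on the mRNA are approximate, for ALDOA in particular. GGACT stood once in each of 6 of the 11 placed peaks, in both GPI peaks and in peaks of TPI1, PGK1, PGAM1 and PKM, against 22.7% of all placed peaks with at least 1.

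**Figure D5:**
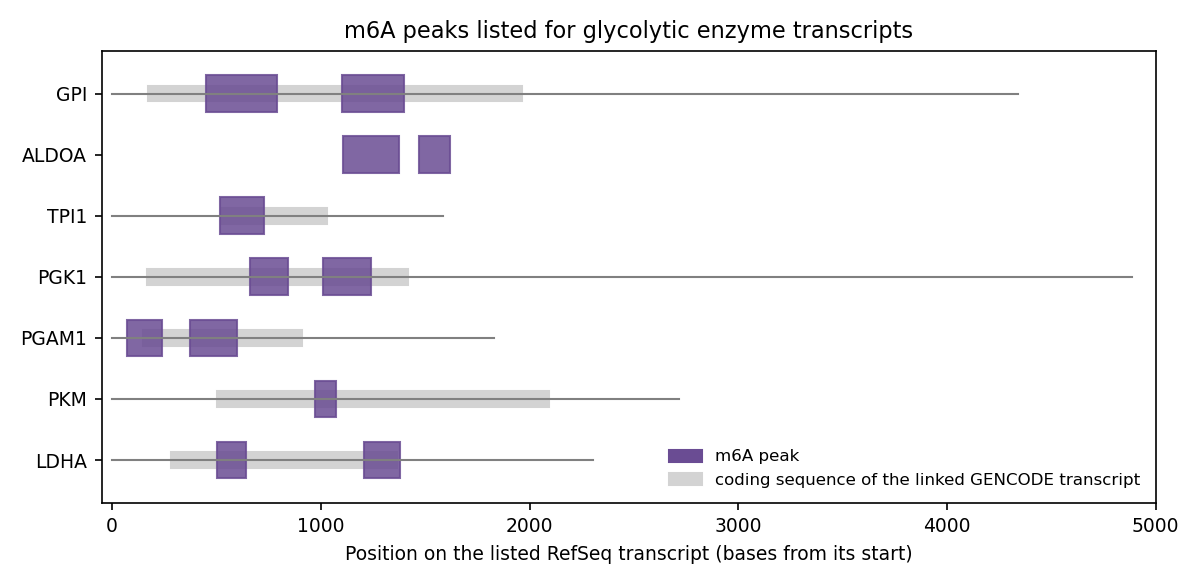
Listed m6A peaks (purple) of the 7 enzymes that have any, in bases from the start of the listed RefSeq transcript (x axis), over the coding sequence (grey) of the linked GENCODE transcript. The second ALDOA peak passes the end of its linked transcript, so ALDOA is drawn without one, and the middles of the other placed peaks lie over grey.

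Both CLIP clusters and placed m6A peaks were listed for 5 enzymes, GPI, ALDOA, TPI1, PGK1 and PKM. Clusters overlapped 4 of their 7 placed peaks (57.1%, 95% Wilson interval 25 to 84.2%), against 12.5% of 1534 placed peaks on the 489 protein-coding genes with both. The reverse share was 6 of their 23 clusters (26.1%, 12.5 to 46.5%), against 24.8% of 961, which lies inside the interval. The share of peaks rests on 7 peaks of 5 mRNAs, and peaks of 1 mRNA are not independent of each other. It also depends on how many clusters there are per peak. The members had 23 clusters for 7 peaks, against 961 clusters for 1534 peaks on all such genes. The part of this density in the share of peaks met was not tested. PKM had the closest meeting of both signals. Its single peak, bases 971 to 1070, held 1 GGACT, and the replicate 1 cluster in exon 5 (3 events) covered that motif, the only member cluster that held it. The replicate 2 cluster of 2 events in the same exon (chr15:72209684-72209700) lay 56 bases further along, still inside the peak. Both of these exon 5 clusters also match the pseudogene PKMP1 exactly, so the origin of their events is uncertain. In GPI the exon 2 cluster of replicate 2 ended at the base directly before a GGACT that starts at base 494, inside the peak at 448 to 790. These motifs are shown in capitals, PKM from chr15:72209747-72209776 on the minus strand and GPI as spliced mRNA from chr19:34366414 across the junction of exons 2 and 3 to chr19:34366790.
PKM exon 5: gaacatcctgtggctGGACTacaagaacat
GPI exons 2 and 3: gatgcggatgctggtGGACTtggccaagtc
A match of letters is a description and does not show that these adenosines were methylated. In PGK1 the replicate 2 cluster lay 50 bases from the GGACT of the peak at 1011 to 1240. In ALDOA a cluster of each replicate, at bases 1366 to 1389 in replicate 1 and 1290 to 1320 in replicate 2, overlapped the peak at 1107 to 1375, which had no GGACT. These ALDOA overlaps are counted in the shares above. They rest on the approximate placement of the ALDOA peaks and are uncertain.

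Together the 6 lists of other genes of glucose metabolism hold 86 genes. CLIP listed 4 of them in either replicate (4.65%, against 4.12% of protein-coding genes) and 2 in both (2.33%, against 1.44%), shares near the background. An m6A peak was listed for 64 (74.4%, against 44.6%). Of 24 further glycolysis genes, which include isoforms of other tissues, 1 was listed in either replicate, PGAM5, a mitochondrial phosphatase related to the mutases by sequence, with 2 events in replicate 2 in its 3′ UTR, and 12 had an m6A peak. None of 14 regulators and transporters was listed by CLIP, and 11 had a peak. Among 13 genes of pyruvate dehydrogenase, its kinases and phosphatases and the pyruvate carrier, PDK2, a kinase that switches the complex off, had 2 events in each replicate in clusters that share 1 base of the 3′ UTR, and 12 had a peak. Of 8 pentose phosphate genes, TKT (transketolase) had 2 events in replicate 2, and 7 had a peak. None of 7 gluconeogenesis genes was listed by CLIP, and 3 had a peak, G6PC3, PC and PCK2. Of 20 citric acid cycle genes, MDH1, the cytosolic malate dehydrogenase, had 3 events in each replicate in its coding sequence, with 12 bases in common, and 19 had a peak. No listed gene of the 6 lists had more than 3 events in a replicate, whereas GAPDH, PKM, ENO1 and ALDOA had 7 to 41.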

How the data were processed

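CLIP tables of the 2 TRMT10A replicates and 1 m6A table were used. The authors deposited counts, not normalized, of the conversion events in each cluster and of the clusters on each line, per the file headers. The deposited log2 enrichment ratio (TRMT10A knockdown over control, per the file headers) was used only to check how its column is sorted. The submitters' processing notes name hg38, TopHat2 and Cuffdiff with no role, and the sources used here do not give the cluster and peak callers.

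Clusters were counted once per gene, scaled to events per 1000000 library events and per kb of the longest GENCODE release 29 mRNA with a RefSeq link (94.1% of 20056 protein-coding genes), and matched between replicates by at least 1 shared base on the same strand. Shares of mRNA exon events leave out histone mRNAs. Intervals are 95% Wilson or exact Poisson. Cluster sequences were searched for exact copies in transcripts of other genes. Overlap and coordinate code was tested on simulated data (350 overlaps and 200 transcripts, all correct). No significance test was made, since CLIP has 1 group and the knockdown arms 1 library each. The 10 members, all of which are named, and the 6 gene lists were chosen with earlier results of these data known. Genes of the lists are named only where CLIP lists them, or where 6 or fewer have an m6A peak. Python 3.11.15 with SciPy 1.17.1 was used.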

Additional observations from a re-analysis of the deposited data

How the results depend on the processing

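Many member clusters are at or near the listing minimum of 2 events. With clusters of at least 5 events, 6 of 47 clusters and 78 of 186 events were left, on GAPDH, PKM and ENO1, members listed in both replicates fell to 2 from 4, and recurrent clusters to 1 from 7 in each replicate. Requiring an overlap over 50% of the shorter cluster left 4 recurrent clusters in each replicate, and allowing gaps of up to 20 bases gave 8 in replicate 1 and 10 in replicate 2. Members listed ranged from 4 to 8 when either replicate was left out. The coding share was 76.6% by clusters and 83.3% by events, and 75.8 to 78.6% with a replicate left out. The share of mRNA exon events was 4.31%, 3.68% with histone mRNAs, 3.81 to 4.82% with a replicate left out, and 2.32% without GAPDH, an alternative chosen after seeing the data. The cause of these shifts was not tested. Counting clusters in exons or under a single gene changed no event count, and merging overlapping peaks left 12 m6A peaks. No paired analysis was possible because only the CLIP group has replicate numbers and no other group shares them. The depth behind the m6A peaks is unknown.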
